A study of Homo sapiens with 6 samples.

Results

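To study the genes of the proteasome when the ETV6/RUNX1 fusion is silenced, catalogue probes were collected whose protein-coding RefSeq accession belongs to a symbol of the families PSMA to PSMG. All 48 such genes of the RefSeq table were on the array, with 63 of its 34134 catalogue probes, and 60 probes of 46 genes were retained above the negative controls. Expression was measured on 6 one-color Agilent arrays of REH, a line of human acute lymphoblastic leukemia of B-cell precursors with the ETV6/RUNX1 fusion gene and no other ETV6 allele. The 3 knockdown arrays hold cells with a short hairpin RNA (shRNA) directed at the fusion, and the 3 control arrays hold cells with a non-targeting shRNA, which per the study's methods was an ETV6 shRNA that missed the fusion transcript. In both groups the hairpins came by lentivirus with green fluorescent protein, and positive cells were sorted. All arrays come from 1 cell line, and nothing in the labels names separate cultures, although the study speaks of biological triplicates. The p-values measure the spread between these arrays.

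The proteasome degrades proteins that carry ubiquitin chains. Its 20S core is a barrel of alpha and beta rings in which the beta subunits PSMB5, PSMB6 and PSMB7 cut the protein to be degraded. A 19S cap with ATPases recognizes, unfolds and feeds this substrate. Under interferon, and constitutively in many lymphoid cells, PSMB8, PSMB9 and PSMB10 take the places of PSMB5, PSMB6 and PSMB7 in new cores. The resulting immunoproteasome yields peptides that fit class I antigen presentation. Bortezomib, a drug used against blood cancers, blocks PSMB5.

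The sequences in front of the genes are shown first, since interferon and RUNX factors are known to act through sites of this kind. RefSeq promoter windows of the GRCh38.p14 build, with 250 bases before and 50 after each start, were found for 42 of the 48 genes, 51 windows in all. For PSMB5 and PSMB10, a constitutive and an immunoproteasome gene with different motif letters, the 250 bases before the start are printed 5′ to 3′. Capitals mark matches, on either strand, to TGTGGT (the core of the RUNX site), CCAAT (NF-Y), TGANNNNGC (antioxidant response element) and GAAANNGAAA (interferon response element).
PSMB5, chr14:23035221-23035470, minus strand: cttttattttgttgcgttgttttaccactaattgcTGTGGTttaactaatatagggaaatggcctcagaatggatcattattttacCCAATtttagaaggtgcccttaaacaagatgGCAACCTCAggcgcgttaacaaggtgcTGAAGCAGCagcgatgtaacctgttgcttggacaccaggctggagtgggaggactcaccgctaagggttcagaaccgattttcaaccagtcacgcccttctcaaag
PSMB10, chr16:67936851-67937100, minus strand: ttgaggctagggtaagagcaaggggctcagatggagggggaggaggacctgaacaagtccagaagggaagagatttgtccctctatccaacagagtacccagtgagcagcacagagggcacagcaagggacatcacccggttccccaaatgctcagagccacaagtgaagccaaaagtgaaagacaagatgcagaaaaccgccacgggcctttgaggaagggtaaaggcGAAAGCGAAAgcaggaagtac
PSMB5 held a RUNX core, CCAAT and antioxidant letters in this window, and PSMB10 held only the interferon letters, at bases -21 to -12.

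The interferon letters were found in 7 of the 51 proteasome windows (13.7%), against 3.57% of all 35116 windows in the table. They lay before, across or just after the start of 7 genes. Stretches of 30 bases around each match, read on the motif's own strand with the match in capitals, show how alike the sites of PSMB8, PSMB10, PSME1, PSME2 and PSMG4 are.
PSMB8, second start, chr6:32844032-32844061, plus strand: aggaggaagtGAAAGCGAAAgccacagatc
PSMB10, chr16:67936852-67936881, minus strand: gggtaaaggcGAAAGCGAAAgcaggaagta
PSME1, chr14:24136189-24136218, minus strand: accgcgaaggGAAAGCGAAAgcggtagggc
PSME2, chr14:24146619-24146648, minus strand: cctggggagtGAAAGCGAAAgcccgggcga
PSMG4, chr6:3258904-3258933, plus strand: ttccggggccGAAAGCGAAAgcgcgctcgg
PSMA4, chr15:78540155-78540184, plus strand: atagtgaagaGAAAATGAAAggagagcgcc
PSMB4, chr1:151399495-151399524, plus strand: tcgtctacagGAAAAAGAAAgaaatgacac
The first 5 shared the letters GAAAGCGAAA, whereas PSMA4 and PSMB4 differed in the free positions, and no such match lay in the window of PSMB9.

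The fusion keeps the DNA-binding part of RUNX1, so windows with its core letters were listed too. TGTGGT was found in 6 of 51 proteasome windows (11.8%) and in 13.1% of all windows. The genes were PSMA3, PSMB5, PSMC5, PSMD6, PSMD9 and PSMD13. In PSMD9, the copies lay at bases -141 to -136 and -34 to -29 before the start, and in PSMD13 at -215 to -210 and -187 to -182. Those of PSMD9 are printed.
PSMD9, upper copy, chr12:121888637-121888666, minus strand: aacacgtgcgccTGTGGTgacccggcagga
PSMD9, lower copy, chr12:121888744-121888773, plus strand: ttcgcggacggcTGTGGTgttttggcgcat
CCAAT was in 39.2% of the proteasome windows and 34.6% of all, and the antioxidant letters in 62.7% and 41.8%. In the windows of the members, different motifs overlapped at 3 places. A match of letters is a description and says nothing on binding.

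The targeted transcript was examined before the members. Of the ETV6 probes, A_33_P3356325 read 7.93, 8.07 and 8.38 in control and 7.52, 7.48 and 7.31 in knockdown on the normalized log2 scale, so that knockdown minus control was -0.69 (SE 0.13; adjusted p = 0.0498 by limma), and its position in ETV6 was not analysed here. It stayed lower in all 17 alternatives and was called in 3 of them; the smallest size, -0.35 with an adjusted p of 0.213 by limma, came from scaling on spike-in probes. A second ETV6 probe was well above background on 0 of 6 arrays and was not retained. Median raw intensity per array was 66 to 75, against 42.3 to 48.0 for the negative controls, 45.9% to 51% of probes were well above background, and correlations between arrays ran from 0.986 to 0.996 across probes. Of 10 B-cell precursor marker genes, 9 were retained and VPREB1 was not. Among their 12 retained probes 10 were higher in knockdown, none was called and 5 (41.7%) had an unadjusted p under 0.05, against 12.6% of all probes. In the fit with a replicate block 4 of the 12 (33.3%) were called (CD22, CD79B and both of IGLL1), against 4% of all probes, and their part in the values below was not tested. Of the T-cell, myeloid and erythroid markers on the array, CD3G, S100A8, S100A9 and HBB were not retained, and 7 genes were, with 0 of their probes called.

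No proteasome gene passed the test between knockdown and control. Of the 60 retained probes 0 were called at an adjusted p under 0.05, against 1.78% of all 27062 retained probes (482), which were 130 higher and 352 lower in knockdown. With the replicate number as a block, again 0 of 59 probes were called, against 4% of all. At an unadjusted p under 0.05 there were 2 proteasome probes, for PSME3 and PSMC4, or 3.33% against 12.6% of all probes. Control and knockdown did not overlap for 12 of the 60 probes, or 20%, close to the 19% of all probes. For any of these probes, the smallest two-sided p that an exact permutation test over 3 and 3 arrays allows is 0.1. Arrays of bulk RNA cannot tell fewer cells of a type from less RNA per cell. Under scaling on 7 spike-in probes, which raised the median of all probes to 0.34, PSME3 and PSMC4 were called higher. That is 3.33% of the proteasome probes against 7.67% of all probes called and 6.92% called higher. At an unadjusted p under 0.05 there were then 14 proteasome probes, or 23.3% against 32.9% of all.

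**Figure D1:**
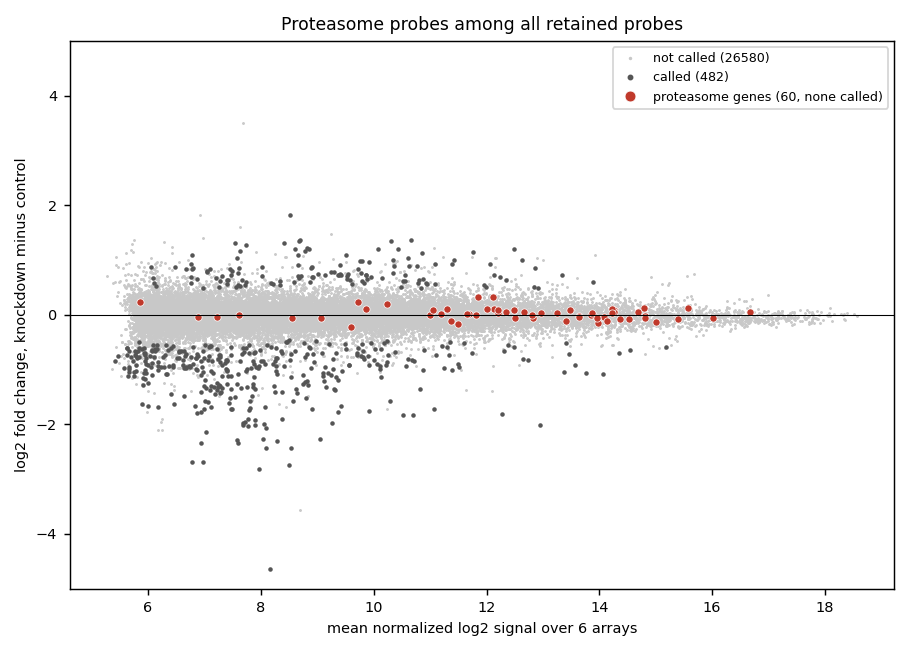
Log2 fold change (knockdown minus control, y axis) of all 27062 retained probes against their mean normalized log2 signal over 6 arrays (x axis). Light points were not called, dark points are the 482 called probes, and red points are the 60 proteasome probes, which all lie within 0.33 of 0.

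The sizes of the differences and their errors were then set beside those of all retained probes. The median log2 fold change of the 60 probes was 0.0082, against -0.0014 for all retained probes, with 31 higher and 29 lower, of which all were higher under spike-in scaling. Their median size of change, without sign, was 0.060 on the log2 scale, against 0.118 for all probes and 0.095 for the 4872 probes whose mean signal was at or above 11.47, the lower quartile of the members. In this scaling no proteasome probe moved by more than 0.5, whereas 5.05% of all probes and 2.18% of those 4872 did. Under spike-in scaling the members ran from 0.11 to 0.67, with a median of 0.349. PSME3 (0.67) and PSMC4 (0.67) were the highest, and dimmer probes of PSMD9 and PSMF1 also passed 0.5. The share of all probes over 0.5 in that scaling was not taken. The median SD within a group was 0.11 for the members, 0.15 for all probes and 0.13 for those 4872, of which 8.72% had an unadjusted p under 0.05. The 95% confidence interval of the fit reached 0.25 to each side in the median member, and it lay within 0.5 of 0 for 55 of the 60 probes (91.7%), against 68.8% of all probes and 78.5% of those 4872. The farthest bound was -0.60, for the dimmer probe of PSME4. On single arrays, the members' median distance from the control mean was -0.04, 0.01 and 0.04 in control and 0.02, 0.02 and 0.05 in knockdown, so that the arrays of both groups overlapped.

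**Figure D2:**
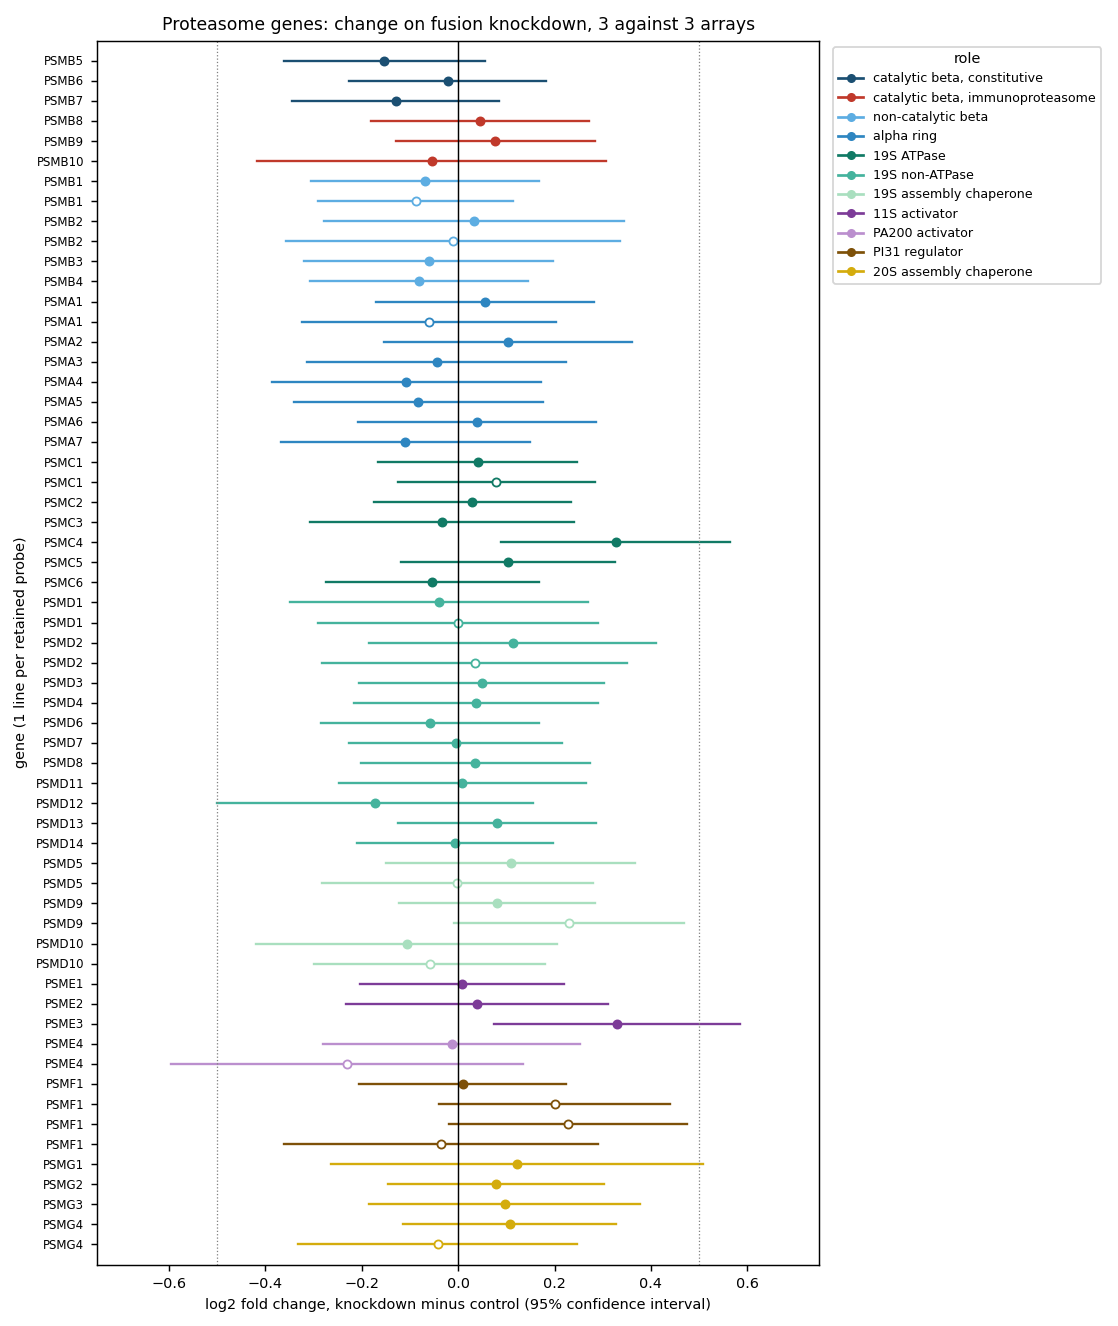
Log2 fold change (x axis) with its 95% confidence interval for each of the 60 retained probes (y axis), colored by role; filled points are the brightest probe of a gene and open points its other probes. Dotted lines stand at 0.5 to each side of 0, and only the intervals of PSME3 and PSMC4 leave out 0, a picture relative to the bulk of probes, since spike-in scaling shifts every probe upwards.

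Next, the catalytic subunits were set side by side. Log2 fold changes ran from -0.15 to -0.02 for the constitutive subunits and from -0.06 to 0.08 for the immunoproteasome subunits; under spike-in scaling all 6 were above 0, and none of the 6 was called in either. PSMB5, the chymotrypsin-like site and the main target of bortezomib, read 14.09, 14.05 and 14.03 in control and 13.95, 13.93 and 13.83 in knockdown. All 3 knockdown arrays lay below all 3 control arrays. The log2 fold change was -0.15 (SE 0.090, 95% interval -0.36 to 0.055, limma adjusted p = 0.546), and it turned to 0.19 under spike-in scaling.

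PSMB6, the caspase-like site, gave 14.87, 14.81 and 14.78 in control and 14.77, 14.83 and 14.81 in knockdown. These groups overlapped, and the log2 fold change was -0.02 (SE 0.089; adjusted p = 0.946 by limma). PSMB7, the trypsin-like site, gave 15.03, 15.13 and 15.05 in control and 14.87, 14.95 and 15.00 in knockdown. Here the groups did not overlap, all knockdown arrays being lower, and the log2 fold change was -0.13 (SE 0.093, 95% interval -0.34 to 0.085, limma adjusted p = 0.628; 0.21 under spike-in scaling).

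PSMB8, which takes the place of PSMB5, read 12.63, 12.66 and 12.64 in control and 12.60, 12.65 and 12.82 in knockdown. Only knockdown replicate 3 lay above the control arrays, and without it the difference of 0.05 (log2 scale; SE 0.098; adjusted p = 0.891 by limma) became -0.02. PSMB9, which replaces PSMB6, read 14.24, 14.27 and 14.17 in control and 14.29, 14.35 and 14.29 in knockdown. The knockdown arrays were all higher, by a margin smaller than the spread, with a log2 fold change of 0.08 (SE 0.089, 95% interval -0.13 to 0.28, limma adjusted p = 0.778). PSMB10, which replaces PSMB7, read 14.65, 14.93 and 14.96 in control and 14.47, 14.93 and 14.97 in knockdown. Replicate 1 was the low array in both groups, and the log2 fold change was -0.06 (SE 0.16, limma adjusted p = 0.920).

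The exchange itself was then read within each array, as the immunoproteasome subunit minus its constitutive counterpart with the control mean at 0, a quantity that no shift of a whole array alters. For PSMB8 minus PSMB5 the control arrays gave -0.05, 0.02 and 0.03 and the knockdown arrays 0.06, 0.13 and 0.40. For PSMB9 minus PSMB6 they gave -0.04, 0.05 and -0.01 against 0.11, 0.11 and 0.07. In both pairs every knockdown array lay above every control array, which was not tested. Of all single probes 19% did not overlap, PSMB5 and PSMB9 among them, and no such share was taken for differences between probes. For PSMB10 minus PSMB7 the values were -0.15, 0.02 and 0.13 against -0.17, 0.21 and 0.19, which overlap. Averaged over the 3 pairs, the differences were -0.08, 0.03 and 0.05 in control and 0.0009, 0.15 and 0.22 in knockdown. Their mean in knockdown, 0.12 ± 0.11 (SD, n = 3; control SD 0.071), was not tested, and the groups overlapped, since knockdown replicate 1 lay among the control arrays. Within the pairs of replicates 1, 2 and 3, knockdown minus control was 0.082, 0.12 and 0.17, above 0 in 3 of 3 pairs, which was not tested either. Of the 17 alternatives 7 cannot alter the mean, and the deposited log2 table left it at 0.124. In the other 9 it ran from 0.075 with the slide row as a term and 0.076 without knockdown replicate 3 to 0.19 without knockdown replicate 1.

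**Figure D3:**
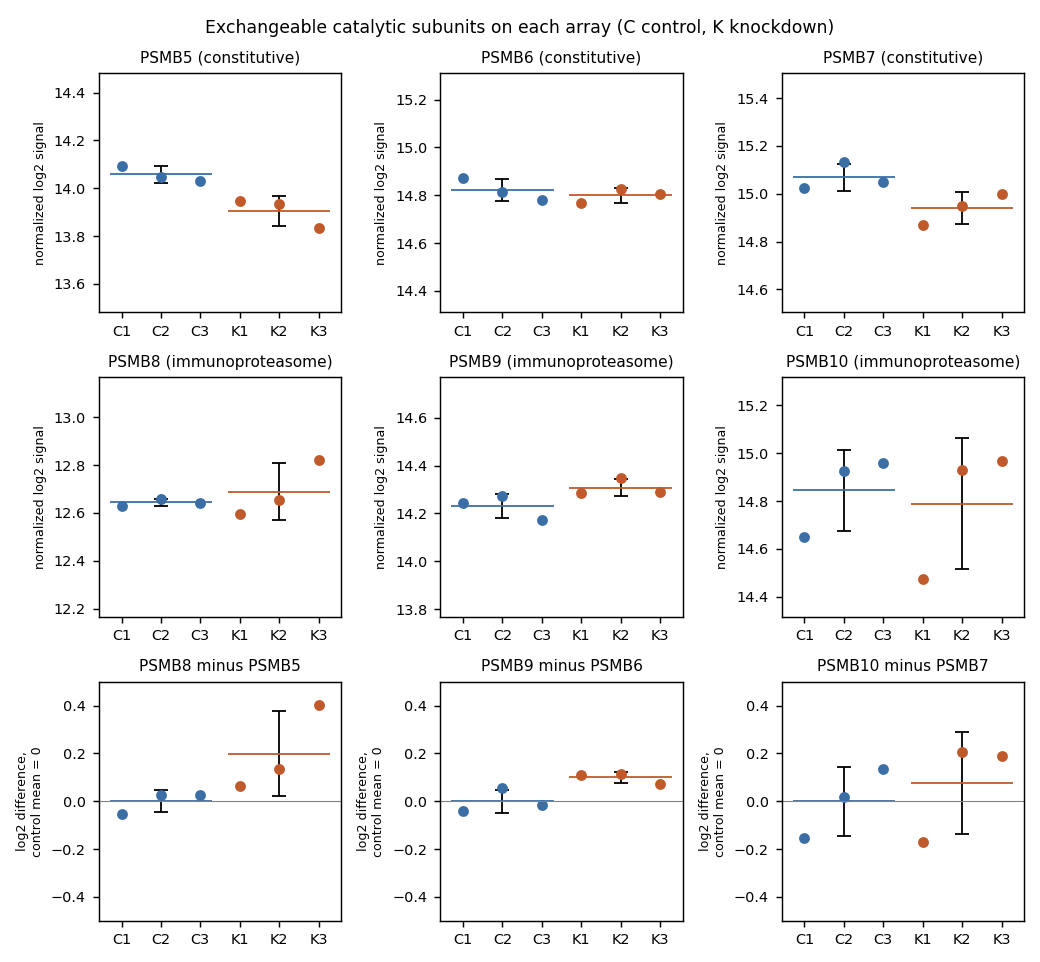
Upper and middle rows show the normalized log2 signal (y axis) of the constitutive and immunoproteasome subunits on each array (x axis, C control and K knockdown replicates 1 to 3), each panel spanning 1 log2 unit; the lower row shows the log2 difference of each pair with the control mean at 0. Colored lines are group means and bars the SD. PSMB5 and PSMB7 are lower on every knockdown array, and spike-in scaling turns their log2 fold changes to above 0. The pair differences PSMB8 minus PSMB5 and PSMB9 minus PSMB6 are higher on every knockdown array, which was not tested.

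In the rest of the core, the non-catalytic beta subunits and the alpha ring stayed within 0.11 of 0 on the log2 scale. PSMB2, the highest of the non-catalytic beta subunits, measured 12.99, 13.30 and 13.41 in control and 13.12, 13.29 and 13.38 in knockdown (log2 fold change 0.03, limma adjusted p = 0.947). PSMB4, the lowest, measured 15.46, 15.45 and 15.42 in control and 15.23, 15.40 and 15.45 in knockdown (-0.08, adjusted p = 0.788; -0.02 without knockdown replicate 1). Neither separated the groups, but the dimmer probe of PSMB1 did, with a log2 fold change of -0.09 (limma adjusted p = 0.735).

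The alpha ring forms the gate of the barrel. Its highest member was PSMA2, at 14.06, 14.22 and 14.27 in control and 14.13, 14.32 and 14.40 in knockdown (log2 fold change 0.10, limma adjusted p = 0.759). It was 0.017 with the slide row as a term and 0.042 to 0.18 with 1 array left out. Its lowest was PSMA7, at 14.10, 14.29 and 14.18 in control and 13.92, 14.22 and 14.10 in knockdown (-0.11, adjusted p = 0.743; -0.03 without knockdown replicate 1). Both sets of arrays overlapped. By the brightest probe of each gene, 10 of the 14 core genes other than the immunoproteasome were lower in knockdown, with a median log2 fold change of -0.065. Of all probes 50.3% were lower. Of the 4872 probes with a mean signal at or above 11.47, 52.4% were lower, with a median of -0.0089. Under spike-in scaling all of the 14 genes were higher.

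PSMA8, the alpha subunit of the testis, and PSMB11, the catalytic subunit of the thymus cortex, were not retained. For PSMA8, 0 of 6 arrays had a signal well above background, and for the brighter PSMB11 probe 2 control arrays and 1 knockdown array did. The constitutive and immunoproteasome subunits were well above background on all 6 arrays.

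In the 19S cap, PSMC4 was the highest gene. The PSMC genes code for the ATPase ring that unfolds the substrate. PSMC4 measured 12.03, 11.79 and 12.01 in control and 12.31, 12.29 and 12.21 in knockdown. Every knockdown array lay above every control array, with a log2 fold change of 0.33 (SE 0.10, 95% interval 0.089 to 0.56, unadjusted p = 0.0132 and adjusted p = 0.222 by limma). With the replicate block the adjusted p was 0.136 by limma. A dimmer probe of PSMC1 also had groups that did not overlap, with a log2 fold change of 0.08 (adjusted p = 0.770 by limma). PSMC6, the lowest ATPase, measured 12.43, 12.61 and 12.56 in control and 12.50, 12.42 and 12.51 in knockdown (log2 fold change -0.05, limma adjusted p = 0.863).

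Among the non-ATPase subunits, which dock substrates, bind ubiquitin or remove it, the range ran from -0.17 to 0.11. PSMD12, a lid subunit, measured 11.30, 11.61 and 11.86 in control and 11.44, 11.40 and 11.41 in knockdown (-0.17, SE 0.14, limma adjusted p = 0.676). Its control arrays spread over more than the difference, which was -0.44 against control replicate 3 alone (the slide row as a term), -0.32 without control replicate 1 and -0.039 without control replicate 3. The brighter probe of PSMD2, a docking subunit of the base, measured 15.46 and 15.55 on control replicates 1 and 3, and 15.45, 15.67 and 15.73 in knockdown (0.11, limma adjusted p = 0.770), its reading on control replicate 2 being left out for an outlier flag. Averaging its probes gave 0.65, since on control replicate 2 that average held the dimmer probe alone, and single arrays left out gave 0.058 (without knockdown replicate 3), 0.069 (without control replicate 1) and 0.19 (without knockdown replicate 1). PSMD13 had groups that did not overlap, at 0.08 (adjusted p = 0.766 by limma). PSMD14, the deubiquitinase, was at -0.0069 (adjusted p = 0.982), and PSMD4, a ubiquitin receptor, at 0.04 (adjusted p = 0.921). Over the 17 cap genes, 10 were higher and 7 lower, with a median of 0.029, where 50.3% of all probes were lower. All 17 were higher under spike-in scaling.

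The genes outside the mature particle were those that activate or assemble it. PSME3, which codes for the nuclear activator PA28 gamma, had the highest value of all members. It measured 11.56, 11.67 and 11.83 in control and 11.91, 12.02 and 12.11 in knockdown. The groups did not overlap, with a log2 fold change of 0.33 (SE 0.11, 95% interval 0.074 to 0.58). By limma the unadjusted p was 0.0177 and the adjusted p 0.254, or 0.0989 with the replicate block. With the slide row as a term, that is against control replicate 3 alone, the log2 fold change was 0.18. PSME1 and PSME2 code for the interferon-induced activator PA28 of the cytosol. PSME1, the lowest activator of this family, measured 11.76, 11.69 and 11.61 in control and 11.71, 11.71 and 11.66 in knockdown (0.0079, limma adjusted p = 0.982), and PSME2 was at 0.04 (adjusted p = 0.923).

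The activator PA200 is encoded by PSME4, whose brighter probe measured 11.05, 10.89 and 11.09 in control and 11.10, 10.81 and 11.07 in knockdown (log2 fold change -0.01, limma adjusted p = 0.975). Its other probe was at -0.23 (SE 0.16, adjusted p = 0.614), the lowest value of the 60, with 3 of 3 pairs lower and overlapping groups. PSMF1 codes for the regulator PI31 and had 4 probes that did not move as one. The brightest measured 11.14, 11.17 and 11.27 in control and 11.25, 11.15 and 11.21 in knockdown (0.0091, adjusted p = 0.979), and the others ran from -0.04 to 0.23, with non-overlapping groups for the upper ones.

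The chaperones PSMG1 to PSMG4 build the alpha ring. PSMG1, the highest of them, measured 14.49, 14.83 and 14.87 in control and 14.53, 14.99 and 15.04 in knockdown (log2 fold change 0.12, SE 0.17, limma adjusted p = 0.817). In both groups replicate 1 was the low array, and 3 of 3 pairs were higher. The difference was 0.00048 without control replicate 1 and 0.28 without knockdown replicate 1. PSMG2, the lowest, measured 10.98, 11.03 and 11.05 in control and 11.19, 10.98 and 11.12 in knockdown (0.08, adjusted p = 0.794).

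Of the chaperones of the cap's base, PSMD5 was highest, at 9.69, 9.89 and 9.83 in control and 10.08, 9.83 and 9.83 in knockdown (log2 fold change 0.11, limma adjusted p = 0.743), and at 0.026 without knockdown replicate 1 and 0.053 without control replicate 1. PSMD10, also known as gankyrin, was lowest, at 11.27, 11.50 and 11.50 in control and 11.57, 11.19 and 11.19 in knockdown (-0.11, adjusted p = 0.799). Without knockdown replicate 1 it was at -0.24, and at -0.04 without knockdown replicate 2 or 3. Groups overlapped in both genes, and not in PSMD9, whose probes were at 0.08 and 0.23 (adjusted p = 0.763 and 0.417). Of the 12 genes for activators, PI31 and chaperones, 10 were higher and 2 lower by their brightest probe, with a median of 0.080. Of all probes 50.3% were lower. Counted by probe, 3 were higher and 3 lower for the chaperones of the cap's base, and 4 and 1 for PSMG1 to PSMG4. For PSMF1 they were 3 and 1, for PSME1 to PSME3 3 and 0, and for PSME4 0 and 2. Again all were higher under spike-in scaling. These counts were not tested against those of the core.

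**Figure D4:**
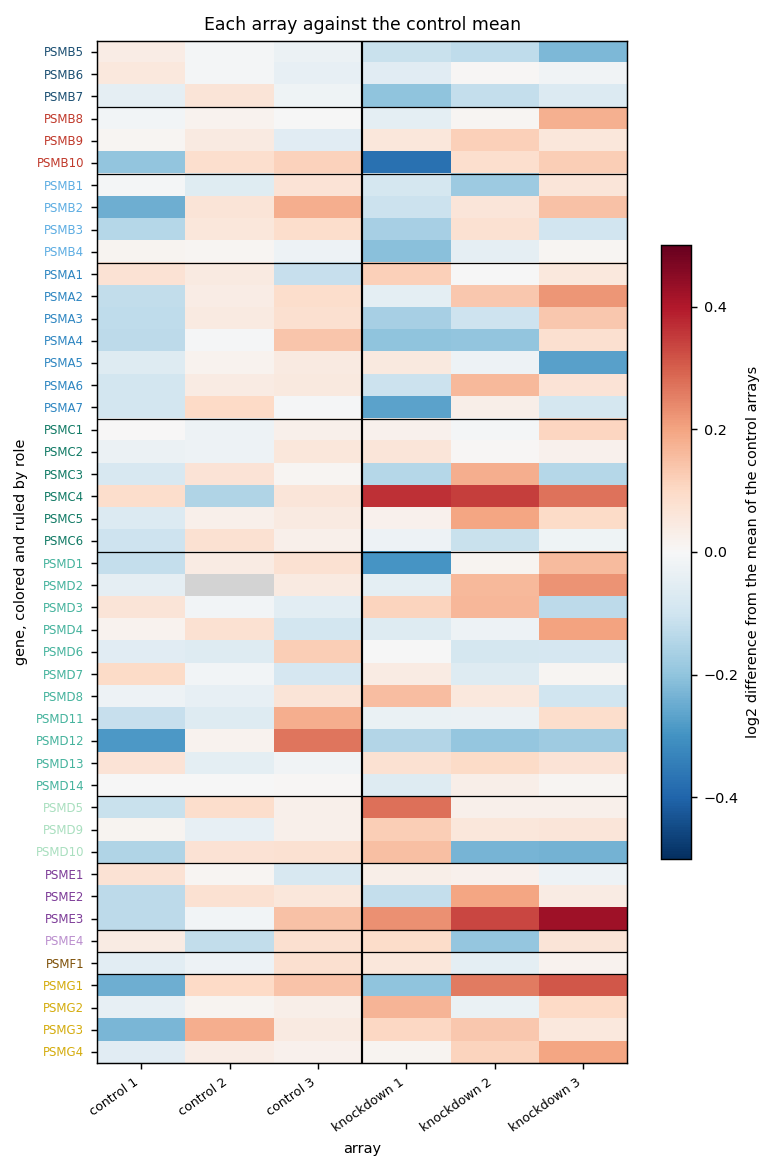
Log2 difference of each array from the mean of the control arrays (color) for the brightest probe of each of the 46 genes (rows, ruled by role) on the 6 arrays (columns); the gray cell is the reading of PSMD2 left out. PSMC4 and PSME3 are the rows that are red on all 3 knockdown arrays to about 0.2 or more. Replicate 1 is blue in both groups for PSMB10 and PSMG1. Spike-in scaling raises the log2 fold change of every row, and its shift on single arrays is not shown.

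The levels were then read beside the promoter letters printed above. The 7 genes with the interferon letters had log2 fold changes from -0.11 to 0.11, with a median of 0.0079, and the 33 other genes with a window and a retained probe had a median of 0.033. The 6 genes with the RUNX core ran from -0.15 in PSMB5 to 0.10 in PSMC5, with a median of 0.018, against 0.031 for the 34 others. None of these genes was called, PSMB8, PSMB10, PSME1 and PSME2 with their like sites included.

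Other genes of the pathway were taken from lists. Of 49 listed genes 48 were on the array, and of their 70 retained probes 0 were called, against 1.78% of all, 5 had an unadjusted p under 0.05, against 12.6% of all, 37 were higher and 33 lower. Under spike-in scaling 2 were called (2.86%), both higher, against 7.67% of all, and 17 had an unadjusted p under 0.05 (24.3%), against 32.9% of all. In the list of interferon and antigen presentation, 14 probes were higher and 8 lower. IRF2, a repressor and activator of interferon-stimulated genes, was highest, at 6.72, 6.73 and 6.73 in control and 6.94, 6.89 and 7.26 in knockdown (log2 fold change 0.30, limma adjusted p = 0.338). It was 0.64 and called under spike-in scaling (adjusted p = 0.0440 by limma), and 0.19 without knockdown replicate 3. NLRC5, the transactivator of class I genes, was lowest. Its first probe measured 10.82, 10.44 and 10.38 in control and 10.39, 10.19 and 10.12 in knockdown (-0.31, adjusted p = 0.417; -0.18 without control replicate 1), and its second gave -0.37 (adjusted p = 0.219), both lower in 3 of 3 pairs. The peptide transporter gene TAP1, a neighbor of PSMB8 and PSMB9 on chromosome 6, was at 0.0023 (adjusted p = 0.996), and B2M, the light chain of class I, at -0.16 (adjusted p = 0.522).

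In the ubiquitin and shuttling list, the ubiquitin-activating enzyme UBA1 was highest (12.38, 12.19 and 12.20 in control, 12.38, 12.64 and 12.55 in knockdown, log2 fold change 0.27, limma adjusted p = 0.362). ZFAND5, a zinc finger protein that stimulates the proteasome, was lowest (12.94, 12.66 and 12.93 against 12.82, 12.54 and 12.65, log2 fold change -0.17, adjusted p = 0.619). Its dimmer probes gave -0.35 and -0.39 (adjusted p = 0.544 and 0.242), so that all its probes were lower in 3 of 3 pairs. Among bound factors, PITHD1 was highest (8.90, 9.06 and 9.24 against 9.24, 9.43 and 9.22, log2 fold change 0.23, adjusted p = 0.493) and the thioredoxin-like TXNL1 lowest (15.06, 14.77 and 14.78 against 14.88, 14.56 and 14.45, log2 fold change -0.24, adjusted p = 0.552). PITHD1 was at 0.057 with the slide row as a term and 0.14 without control replicate 1, and TXNL1 at -0.14 without control replicate 1 and -0.36 without knockdown replicate 1.

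Proteasome genes are themselves switched on by the transcription factor NFE2L1 when activity runs short, after NGLY1 and the protease DDI2 process it. NFE2L1 was at 0.10 (SE 0.18, limma adjusted p = 0.869), or -0.11 without knockdown replicate 1, and NGLY1 at -0.08 (adjusted p = 0.814). DDI2 was the highest of this list, at 6.69, 6.61 and 6.88 in control and 6.73, 7.04 and 6.70 in knockdown (0.10, adjusted p = 0.808). NFYA, a subunit of the factor that binds CCAAT, was the lowest, at 9.53, 9.38 and 9.07 in control and 9.32, 9.10 and 9.20 in knockdown (-0.12, adjusted p = 0.767; -0.02 without control replicate 1), and a dimmer NFYA probe was at 0.03 (adjusted p = 0.920). The groups overlapped in both genes.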

How the data were processed

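Total RNA of REH cells was labelled with Cy3 per the labels, and per the file headers the authors took spot intensities from the scans with Feature Extraction 10.7.1.1. The deposited raw intensities were not normalized between arrays. The authors' deposited log2 table of the same arrays, for which their methods name VSN, background subtraction and a filter, served as an alternative. The VSN model (an affine calibration of each array and an inverse hyperbolic sine) was refitted by maximum likelihood on the raw median intensity, with the 0.9 quantile of least squares kept. Its generalised log2 scale understates the change of dim probes. Outlier-flagged spots were dropped (none was saturated), and the remaining spots of each probe averaged. Probes were retained with a normalized value over 1.1 times the 0.95 quantile of those of the 308 negative controls on 2 of 3 arrays of a group.

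Knockdown was tested against control in limma 3.58.1 (R 4.3.3; two-sided, no block), with Benjamini-Hochberg adjustment over all 27062 retained probes and a call at an adjusted p under 0.05. Fit and test were tested on simulated data. All arrays share 1 slide and 1 scan; control replicates 1 and 2 lie in slide row 1 and the others in row 2. Deviations of arrays with the same replicate number correlated (r = 0.434, 0.298 and 0.211), and those of different numbers had r from -0.339 to 0.192, the highest between replicates 2 and 3. Each same-number r is over 0.1, so the numbers were taken as pairing the arrays, and a fit with the replicate block is given where it matters. The r of control 2 with knockdown 3 (0.192) and of control 3 with knockdown 2 (0.177) are also over 0.1. The rule therefore sets apart replicate 1 only, and the pairing of replicates 2 and 3 rests on their numbers. The number of arrays limits precision. Symbols came from RefSeq accessions and were found for 75.4% of the catalogue probes. Since the array design is of an older build, no probe coordinates are given; promoter windows are RefSeq's. Of the member genes, 21 have named pseudogenes (52 in all), and cross-hybridisation was not tested. Levels of different probes are not comparable.

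Named were PSMB5 to PSMB10, any member called with or without the block, and the highest and lowest gene of every other role or pathway list by its brightest probe; PSMD14, PSMD4, PSME2, TAP1, B2M, NFE2L1 and NGLY1, and probes named for non-overlapping groups, were added after their values were seen. Members and lists were chosen with earlier results of these data known. A total of 17 alternatives were run, 1 of them (a filter on the raw intensity) chosen after seeing the data.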

Additional observations from a re-analysis of the deposited data

How the results depend on the processing

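The count of 0 proteasome probes called was kept in 16 of 17 alternatives, as was that of 0 pathway probes. The exception was scaling on 7 spike-in probes, with 2 called in each set, all higher, and 2075 probes called over all. The median log2 fold change of the proteasome probes, 0.0082, became 0.349 under spike-in scaling, 0.044 with the processed signal scaled on its 75th percentile and -0.027 with the slide row as a term, which sets knockdown against control replicate 3 alone. The cause of these differences was not tested, other than that spike-in scaling adds the same shift to all probes of an array. Spike-in scaling turned genes that were lower to higher: PSMB5 (0.19), PSMB6 (0.32), PSMB7 (0.21), PSMB10 (0.29), PSMC6 (0.29), PSMD10 (0.23), PSMD12 (0.17), PSME4 (0.33), PSMA7 (0.23), PSMB4 (0.26), NLRC5 (0.026), TXNL1 (0.10), NFYA (0.22), ZFAND5 (0.17), PSMD14 (0.33), B2M (0.18) and NGLY1 (0.26). With the slide row, PSMB6 (0.019), PSMG1 (-0.022), PSMF1 (-0.071), PSMB2 (-0.15), PSME2 (-0.017), DDI2 (-0.053) and NFYA (0.13) changed sign, and PSMF1 did so with normexp and quantile normalization (-0.0033). With the slide row and no change of sign, values moved by more than 1.5 times in PSMB9 (0.13), PSMB10 (-0.17), PSME1 (0.088), PSME3 (0.18), PSMD4 (0.13), PSMD10 (-0.18), PSMD12 (-0.44), PSMD14 (-0.011), PSMG2 (0.050), PSME4 (-0.092), PSMA2 (0.017), NLRC5 (-0.15), PITHD1 (0.057), TXNL1 (-0.15), ZFAND5 (-0.26), TAP1 (0.055) and NFE2L1 (0.19). PSMD14, at -0.0069, was 0.042 with the processed signal, 0.020 with normexp and quantile normalization and 0.00086 in the deposited log2 table. With the processed signal and no change of sign, other values moved by more than 1.5 times. In the core these were PSMB6 (-0.0074), PSMB7 (-0.074), PSMB8 (0.080), PSMB10 (-0.032), PSMB2 (0.063) and PSMB4 (-0.019). Elsewhere in the family they were PSMC6 (-0.0084), PSMD4 (0.019), PSMD5 (0.17), PSMD10 (-0.053), PSME1 (0.063), PSME2 (0.099) and PSMF1 (0.064). Among pathway genes they were IRF2 (0.46), DDI2 (0.21), TAP1 (0.043) and NGLY1 (-0.051). Leaving out 1 array at a time, sign changes occurred in PSMB6 (-0.043 to 0.0034), PSMB8 (-0.020 to 0.093), PSMB10 (-0.15 to 0.10), PSMB2 (-0.090 to 0.12), PSME1 (-0.032 to 0.044), PSME4 (-0.074 to 0.078), PSMF1 (-0.017 to 0.049), PSMD14 (-0.026 to 0.021), PSMD4 (-0.045 to 0.089), PSME2 (-0.040 to 0.12), TAP1 (-0.15 to 0.080), NFE2L1 (-0.11 to 0.25) and DDI2 (-0.011 to 0.17), none of them called. Of the 38 genes named with values in these fits, 31 moved by more than 1.5 times when some array was left out, and 7 did not (PSMB5, PSMB7, PSME3, PSMC4, UBA1, B2M and ETV6). ETV6 was no longer called in any of the 6 fits with 1 array left out (-0.79 to -0.56). The count over all probes was 482, 235 without a filter, 213 with the slide row and 189 to 564 with 1 array left out (189 without control replicate 2, 292 and 255 without control replicates 1 and 3, 219 and 212 without knockdown replicates 2 and 3, 564 without knockdown replicate 1). With the replicate block it was 1079, and the block changed no call of a proteasome or pathway probe; the median log2 fold change of the proteasome probes was then 0.0079.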
